A study of Mus musculus with 5 samples.

Results

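Keratins are the intermediate filament proteins of epithelial cells, and their RNA was followed here in the mouse iridocorneal angle, the ring of tissue where the iris meets the cornea and through which aqueous humor drains. The genes were chosen by name and not by their values. Every protein-coding gene whose mouse symbol is Krt followed by a number was taken, and the keratin-associated proteins (Krtap) were left out. The rule gave 54 keratins among the 56941 gene identifiers of the table, 28 of type I (acidic) and 26 of type II (basic). They form a pair of gene clusters in the GRCm39 assembly. One holds 27 members on chromosome 11, chr11:99123587-100160697, and the other holds 27 members on chromosome 15, chr15:101245325-101940462, among them the type I gene Krt18 next to its partner Krt8. A minimum of 10 counts in 1 pool or more was met by 34 keratins, 17 of each type, and these were tested. The other 20 never exceeded 6 counts in a pool, and 6 of them had no count at all.

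A keratin filament is built from pairs of a type I and a type II protein, so cells make members of both types together. Which pair is made follows the kind of epithelium. Krt5 and Krt14 mark basal cells of layered epithelia, Krt12 the corneal epithelium, Krt4 and Krt13 moist mucosal surfaces such as the conjunctiva, Krt8 and Krt18 single-layered epithelia, and Krt6, Krt16 and Krt17 wounded or stressed epithelium. Desmosomes and hemidesmosomes anchor these filaments to neighbouring cells and to the basement membrane.

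Iridocorneal tissue of 12-month-old DBA/2J mice, which carry a premature stop in Gpnmb together with the Tyrp1 b allele and develop pigmentary glaucoma, was compared with that of DBA/2J-Gpnmb+/SjJ mice (Gpnmb+), the same strain with functional Gpnmb and the same Tyrp1 b allele. No treatment is named for either genotype. Each genotype was sampled as pools given as 3 mice, 3 pools of DBA/2J and 2 of Gpnmb+, although the library names of the Gpnmb+ pools carry 2 animal tags each. Between 43900661 and 49837758 reads per pool were counted on genes. Values of a gene are given below in the order of the pool numbers. Gpnmb itself was counted 1946 to 2234 times in the DBA/2J pools, and 129659 and 110568 times in the Gpnmb+ pools, matching the labels. The Y-linked gene Ddx3y was counted 1567 to 4168 times in the DBA/2J pools but 0 and 4 times in the Gpnmb+ pools, although mice of both sexes are named for the study. Xist, an RNA of female cells, was counted 596, 0 and 2417 times in the DBA/2J pools, and 7843 and 9152 times in the Gpnmb+ pools. Sex thus cannot be told apart from genotype in any comparison below, nor from pool within DBA/2J.

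Basal keratins made up most of the keratin RNA. To compare genes with each other, counts were divided by exon length and scaled to the same total in every pool (TPM). On this scale Krt15, a type I keratin of basal and progenitor cells, ranked highest with a mean of 8555 TPM and held 31.9% of the summed keratin level, averaged over the 5 pools. Krt5 followed with 22.3%, and then Krt13 with 8.51%, Krt4 with 6.86%, Krt14 with 6.20%, Krt6b with 5.67%, Krt6a with 4.85% and Krt12 with 3.90%. These 8 genes together held 90.1%, and every one of them belongs to a layered epithelium. Genes of the surface epithelium that borders the angle were thus abundant in samples labelled as iridocorneal angle, which also held the trabecular meshwork genes Mgp, with 24021 to 35440 counts, and Myoc, with 7106 to 26147 counts. In all, keratin counts were 1.40%, 1.36% and 0.948% of the reads of the DBA/2J pools, and 1.60% and 1.33% of those of the Gpnmb+ pools. In bulk tissue, fewer epithelial cells and less keratin RNA per cell cannot be told apart.

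**Figure D1:**
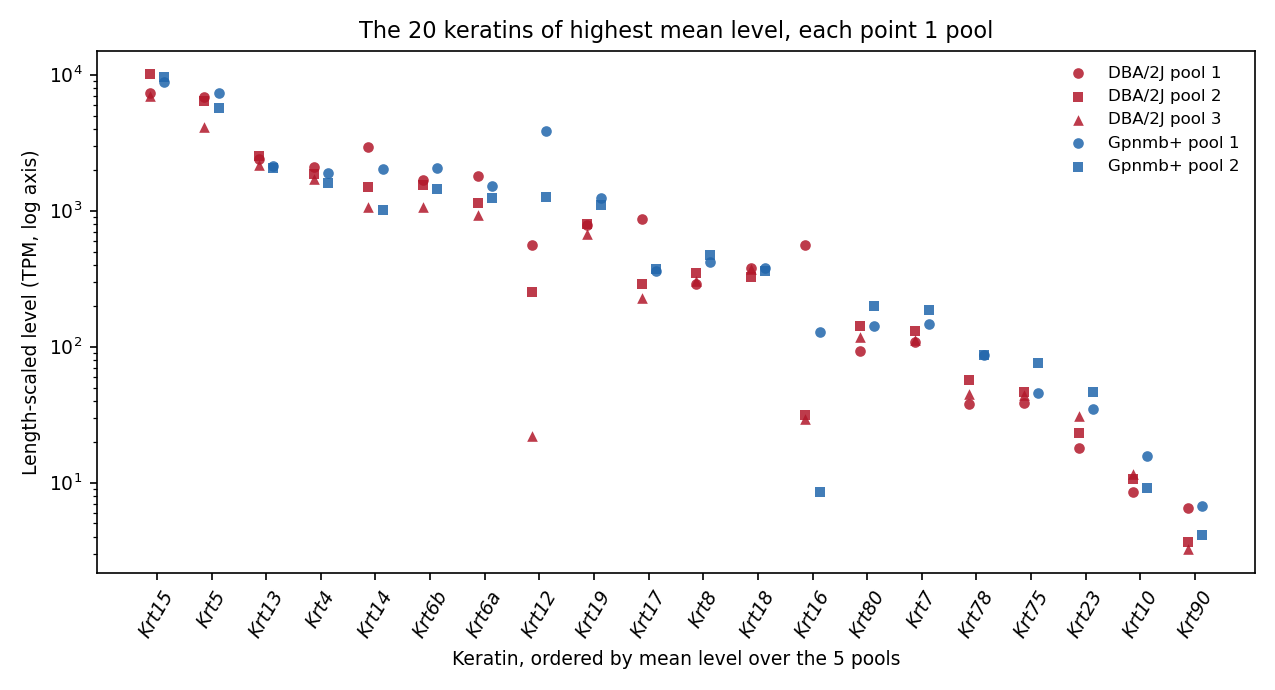
The vertical axis gives the length-scaled level in TPM on a log axis for the 20 keratins of highest mean level, ordered from left to right, and each point is 1 pool (red, DBA/2J; blue, Gpnmb+). Levels fall from a mean of 8555 TPM for Krt15 to 4.85 TPM for Krt90, and the points of Krt12 and Krt16 are spread far more widely than those of their neighbours.

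Among these 8 keratins the share of Krt12 differed most between pools in relative terms, followed by that of Krt14. Krt12 held 1.93%, 0.911% and 0.111% of the summed keratin level in the DBA/2J pools, against 11.9% and 4.65% in the Gpnmb+ pools. Krt14 held 10.2% in DBA/2J pool 1 and 3.77% to 6.22% in the other 4 pools. Krt5 varied least among the major keratins, from 20.6% to 23.7%. Summed over type, the level of type I members divided by that of type II members was 1.22, 1.35 and 1.37 in DBA/2J and 1.40 and 1.44 in Gpnmb+. The genotypes did not overlap in this ratio, with an exact two-sided permutation p of 0.2 over the 10 splits of 5 pools. No such test of 3 pools against 2 can go below 0.1, and over the 13 ratios of this kind that were computed the Benjamini-Hochberg adjusted p was 0.52.

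**Figure D2:**
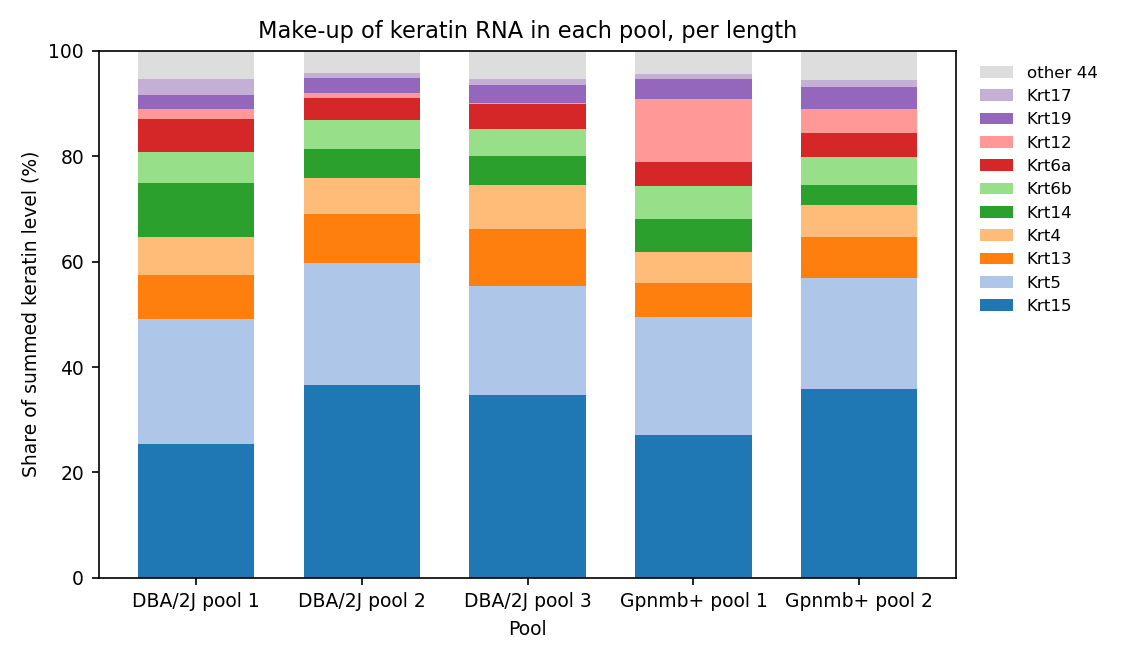
Each bar is 1 pool and the vertical axis gives the share of the summed length-scaled keratin level in percent, for the 10 highest keratins and the other 44 together. Krt15 fills 25.5% to 36.5% of each bar, and the band of Krt12 is broad in the Gpnmb+ pools and thin in DBA/2J pool 3.

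No keratin differed between the genotypes past the threshold, which was a Benjamini-Hochberg adjusted p of at most 0.05 over all tested genes in edgeR's quasi-likelihood test and a fold change of at least 1.5. Over all 19713 tested genes 157 were called, a background of 0.796%, with 0.502% higher and 0.294% lower in DBA/2J. An unadjusted p of at most 0.05 was reached by 7 of the 34 tested keratins, against 15.9% of all genes. Of the 34, 6 reached it with a lower value in DBA/2J, against 7.60% of all genes. Both this p and a 1.5-fold change were reached by 5 of the 34, against 8.67% of all genes. The 5 were Krt12, Krt19, Krt23 and Krt78, lower in DBA/2J as 4.48% of all genes were, and Krt76, which was higher. The other 2 of the 7 were Krt7 and Krt8. By DESeq2, 4 keratins were called, where the background was 4.70% of genes. They were Krt19, Krt23 and Krt78 on the lower side (background 1.94%) and Krt76 on the higher side (background 2.76%). The smallest adjusted p of any keratin in edgeR was 0.0984, for Krt78.

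Of the tested keratins 12 had a higher and 22 a lower fitted value in DBA/2J, and their median log2 fold change (DBA/2J over Gpnmb+) was -0.15, against -0.02 over all tested genes. Without Gpnmb+ pool 1 the median of the keratins was 0.04, and without DBA/2J pool 1 it was -0.38. The pools of the genotypes did not overlap for 10 of the 34, which is 29.4%, close to the 34.5% of all genes. Of the 34, 7 were without overlap and lower in DBA/2J, and 3 were without overlap and higher. The shares of all tested genes were 17.2% and 17.3%. Summed keratin counts, scaled to library size by TMM (CPM), were 14385, 13896 and 9332 in the DBA/2J pools, compared with 15673 and 13149 in the Gpnmb+ pools. They overlapped, with a log2 difference of -0.22 and an exact two-sided permutation p of 0.6.

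**Figure D3:**
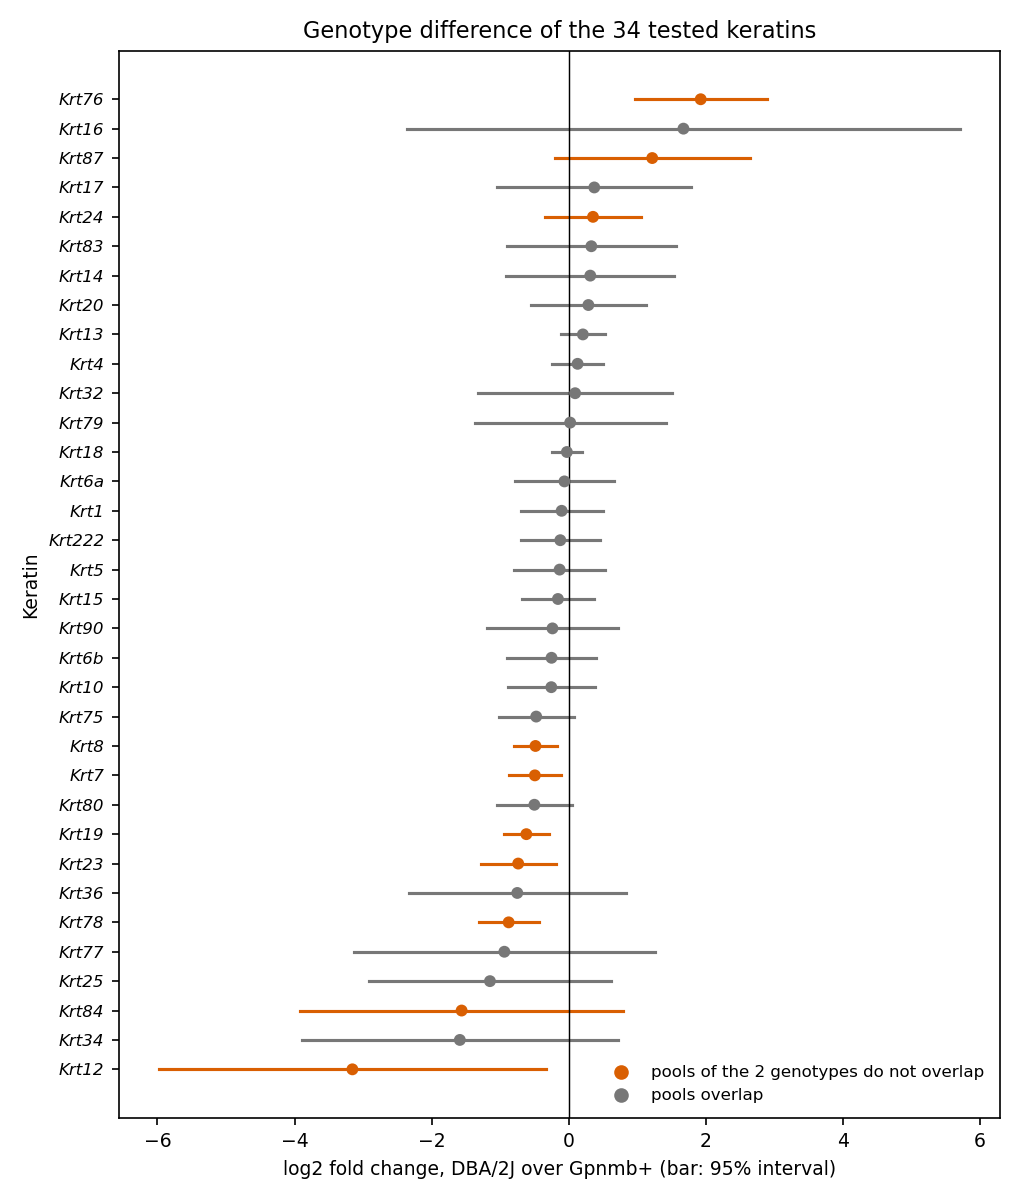
The horizontal axis gives the edgeR log2 fold change of DBA/2J over Gpnmb+ for each of the 34 tested keratins, with its 95% interval as a bar, and orange marks the 10 whose pools did not overlap between genotypes. Krt12 lies lowest at -3.16 and Krt76 highest at 1.92, and the bar of Krt16 is the widest.

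Pools of the same genotype differed more in the median keratin than in the median gene. The spread was taken as the larger of the log2 range over the DBA/2J pools and the log2 difference of the Gpnmb+ pools. Among genes with a mean of at least 100 counts, its median was 0.67 for the 22 keratins and 0.29 for all 13841 genes. Krt12 spread over 4.74 and Krt16 over 4.35, ranges that 9 and 15 of the 13841 genes reached. Krt17 spread over 2.01 and Krt14 over 1.57, reached by 1.44% and 2.80% of these genes. Krt18 was at the other end, with a spread of 0.20 that 71.3% of these genes reached.

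The stretches of 250 bases before the transcription start of 4 keratins are shown because they belong to the gene with the lowest fold change (Krt12), the most uneven wound keratin (Krt16), and the keratins with the smallest adjusted p in each direction (Krt76 and Krt78). They were read from the GRCm39 reference, which is a C57BL/6J genome and may differ from DBA/2J, on the minus strand at chr11:99313087-99313336, chr11:100139796-100140045, chr15:101801356-101801605 and chr15:101862723-101862972. Capitals mark 4 motifs that were searched on both strands and did not overlap there. The TATA box was taken as TATAAA. The AP-1 motif was taken as TGANTCA. The letters bound by KLF factors were taken as CACCC. The Sp1 motif was taken as GGGCGG.
Krt12: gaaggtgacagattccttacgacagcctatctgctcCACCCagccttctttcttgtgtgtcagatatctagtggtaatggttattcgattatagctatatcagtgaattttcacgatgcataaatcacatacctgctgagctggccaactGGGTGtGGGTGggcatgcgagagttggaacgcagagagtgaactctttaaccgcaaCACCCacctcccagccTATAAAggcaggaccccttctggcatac
Krt16: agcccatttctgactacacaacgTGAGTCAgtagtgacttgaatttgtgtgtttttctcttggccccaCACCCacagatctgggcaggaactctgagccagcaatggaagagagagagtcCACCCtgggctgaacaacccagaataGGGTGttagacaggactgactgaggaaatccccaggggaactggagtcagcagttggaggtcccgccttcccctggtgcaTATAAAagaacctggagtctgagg
Krt76: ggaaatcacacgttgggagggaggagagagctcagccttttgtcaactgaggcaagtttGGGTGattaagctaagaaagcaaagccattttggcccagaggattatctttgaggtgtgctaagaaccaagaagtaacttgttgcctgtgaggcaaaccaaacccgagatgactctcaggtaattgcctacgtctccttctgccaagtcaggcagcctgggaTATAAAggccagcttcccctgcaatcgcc
Krt78: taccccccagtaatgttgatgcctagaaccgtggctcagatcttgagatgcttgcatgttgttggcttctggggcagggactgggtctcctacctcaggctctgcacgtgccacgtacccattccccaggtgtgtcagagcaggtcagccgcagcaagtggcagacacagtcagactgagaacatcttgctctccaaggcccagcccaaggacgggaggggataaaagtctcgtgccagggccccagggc
Krt12, Krt16 and Krt76 each held TATAAA on the coding strand, beginning 28, 24 and 29 bases before the start. Krt78 held none of the 4 motifs. CACCC or its reverse complement occurred 4 times in Krt12, 3 times in Krt16 and once in Krt76, and Krt16 alone of the 4 held TGANTCA, 227 bases before its start. Over the family, 24 of 54 keratin windows held TATAAA (44.4%), against 11.9% of 21770 protein-coding genes. GGGCGG showed the opposite, with 6 of 54 windows (11.1%) against 36.3%. CACCC was found in 74.1% of keratin windows against 52.9%, and TGANTCA in 11.1% against 6.17%. A letter match describes the sequence and does not show that a factor was bound.

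Krt12 was the keratin with the lowest value in DBA/2J relative to Gpnmb+. It is the type I keratin of the corneal epithelium, where it is needed for a sound epithelial layer. Its CPM was 254, 116 and 9.44 in the DBA/2J pools, compared with 1702 and 554 in the Gpnmb+ pools. Both Gpnmb+ pools lay above every DBA/2J pool, yet DBA/2J pool 3 was 26.9-fold under DBA/2J pool 1 and Gpnmb+ pool 1 was 3.07-fold above Gpnmb+ pool 2. The fitted level was 8.92-fold higher in Gpnmb+ (log2 fold change -3.16 ± 1.16 SE, edgeR adjusted p = 0.270), with a 95% interval of -5.98 to -0.34. The value was -2.13 without Gpnmb+ pool 1 and -4.17 without DBA/2J pool 1. Krt12 as a ratio of levels to Krt5 was 0.0814, 0.0391 and 0.00537 in DBA/2J and 0.531 and 0.219 in Gpnmb+, so the ratio was lower in every DBA/2J pool than in either Gpnmb+ pool (exact permutation p of 0.2, adjusted p of 0.52 over 13 ratios). The antisense RNA A830036E02Rik, which shares 1072 exon bases with Krt12 on the other strand, was counted 73, 22 and 2 times in the DBA/2J pools, and 327 and 192 times in the Gpnmb+ pools. The strand used in counting is not given in the sources used here, so reads of the pair may be mixed.

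Other corneal epithelial genes also had lower fitted values in DBA/2J. Of 9 markers without keratins, 0 were higher and 9 lower in DBA/2J by fitted value, 0 were called (background 0.796%), and 4 did not overlap between genotypes, where DBA/2J was the lower genotype without overlap in 17.2% of all genes. Slurp1, a secreted protein of the corneal surface, had 1.98, 2.33 and 0.202 CPM in DBA/2J and 20.9 and 6.30 in Gpnmb+ (log2 fold change -3.18 ± 0.89 SE, adjusted p = 0.171 in edgeR). Slurp1 was lowest in DBA/2J pool 3 and highest in Gpnmb+ pool 1, the same pools as Krt12. Psca, a surface protein of epithelial cells, differed by -1.44 (adjusted p = 0.137 in edgeR), and DESeq2 gave it an adjusted p of 0.00152. Aldh3a1, an abundant crystallin-like enzyme of the cornea, ran from 850 to 1632 CPM in DBA/2J and was 1596 and 2114 in Gpnmb+, so its pools overlapped. The summed CPM of the 9 markers was 1956, 2865 and 1678 in DBA/2J and 2707 and 3641 in Gpnmb+. This sum was higher in pool 2 than in pool 1 of each genotype, whereas Krt12 was higher in pool 1. The lowest count of any of the 9 was 9, for Slurp1. How far the amount of corneal epithelium set the value of Krt12 was not tested.

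**Figure D4:**
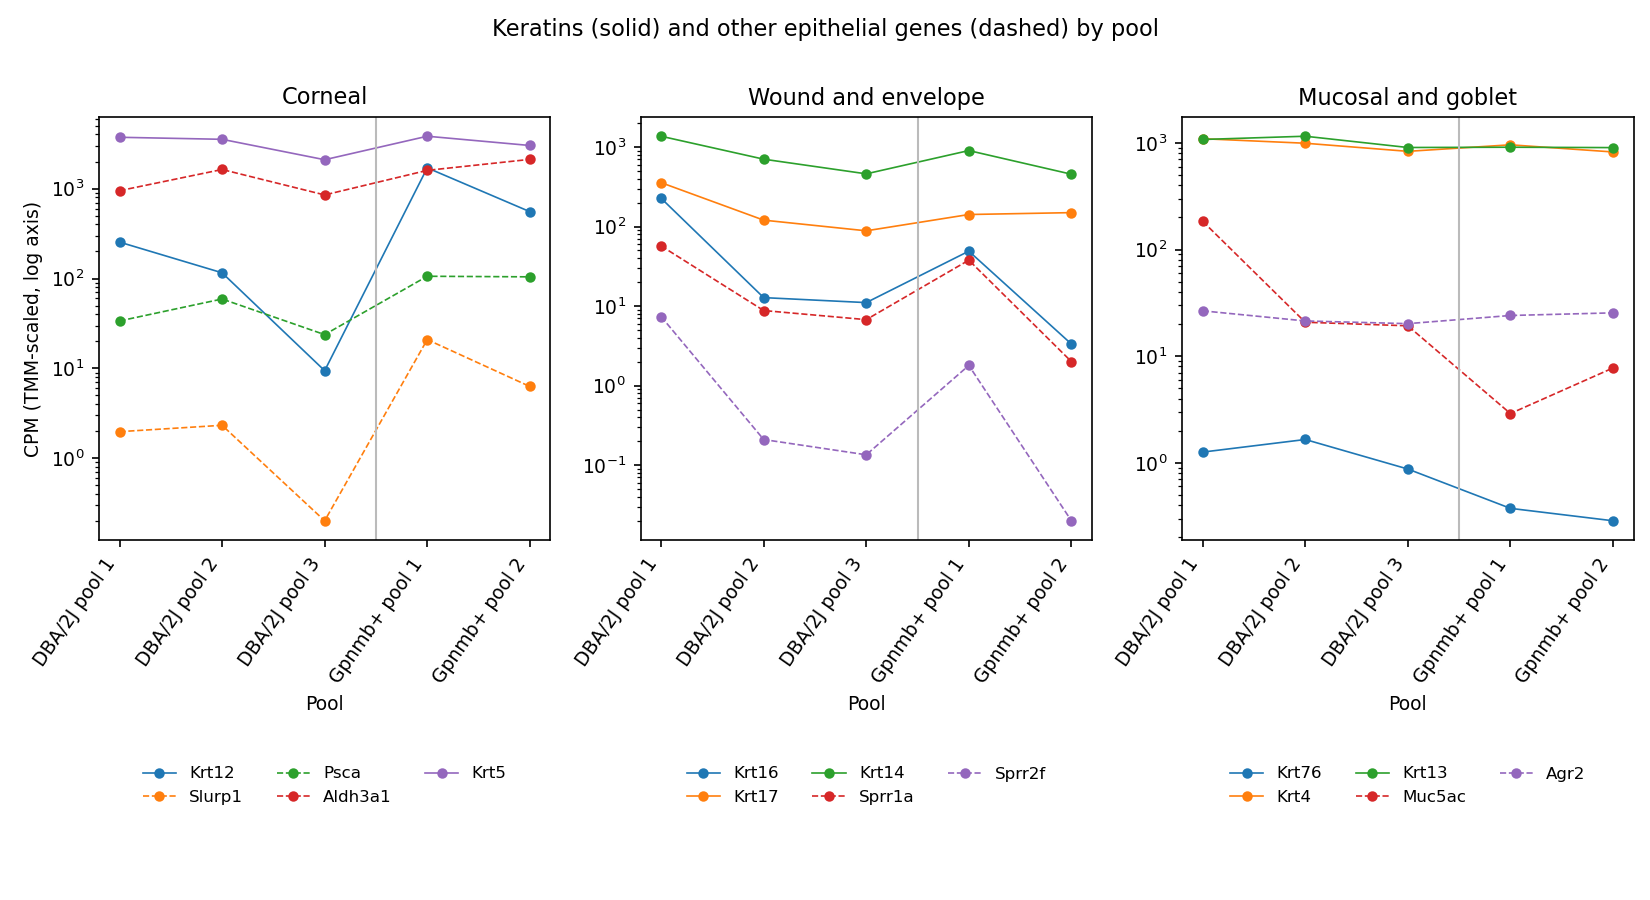
The vertical axis gives TMM-scaled CPM on a log axis in each of the 5 pools, with keratins as solid and other epithelial genes as dashed lines, and the lines only join the points of 1 gene since pools have no order. Krt12 and Slurp1 are lowest in DBA/2J pool 3 and highest in Gpnmb+ pool 1, Krt16 and Sprr1a are high in pool 1 of both genotypes, and Krt76 is lower in both Gpnmb+ pools while Krt4 and Krt13 stay nearly level.

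The basal keratins did not differ between genotypes beyond the spread of their pools. Krt15 had 3239, 4483 and 2852 CPM in DBA/2J and 3753 and 4116 in Gpnmb+ (log2 fold change -0.16, 95% interval -0.68 to 0.36). Krt5, the type II partner of Krt14, had 3724, 3535 and 2095 CPM in DBA/2J and 3825 and 3018 in Gpnmb+ (-0.13, 95% interval -0.80 to 0.53). DBA/2J pool 3 was the lowest pool for both. Krt14 had 1364, 702 and 459 CPM in DBA/2J and 901 and 454 in Gpnmb+, so that pool 1 was highest in each genotype. Its log2 fold change of 0.31 had a 95% interval of -0.91 to 1.53, and it was -0.22 without DBA/2J pool 1. The level of Krt14 was 0.432, 0.234 and 0.258 of that of Krt5 in DBA/2J and 0.278 and 0.177 in Gpnmb+, so the basal pair did not keep a fixed ratio.

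The mucosal pair Krt4 and Krt13 was among the steadiest of the abundant keratins. Krt13 had 1076, 1154 and 905 CPM in DBA/2J and 911 and 903 in Gpnmb+, and its log2 fold change was 0.20 (95% interval -0.12 to 0.53). Krt4 had 1094, 992 and 833 CPM in DBA/2J and 959 and 822 in Gpnmb+, with 0.13 (95% interval -0.24 to 0.49). Their intervals leave room for less than a 1.5-fold difference in either direction. The level of Krt13 was 1.15, 1.36 and 1.27 times that of Krt4 in DBA/2J and 1.11 and 1.29 times in Gpnmb+, a 1.23-fold range over all pools.

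Krt76, a type II keratin of hard palate and gingiva, was the keratin with the highest fitted value in DBA/2J. It was counted 56, 71 and 39 times in the DBA/2J pools, and 19 and 14 times in the Gpnmb+ pools. Every DBA/2J pool was above both Gpnmb+ pools, at 1.26, 1.65 and 0.874 CPM against 0.374 and 0.286. The log2 fold change was 1.92 ± 0.40 SE (adjusted p = 0.0990 in edgeR, adjusted p = 0.00572 in DESeq2), and the value without any 1 of the pools was 1.68 to 2.13. At these counts Krt76 was a trace beside Krt4, its level being 0.00106, 0.00154 and 0.000968 of that of Krt4 in DBA/2J and 0.000360 and 0.000321 in Gpnmb+. The ratio did not overlap between genotypes (exact permutation p of 0.1, adjusted p of 0.52 over 13 ratios), and Krt76 was singled out by its fold change in these same pools.

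Fitted values of most conjunctival goblet cell markers, genes of the mucin-secreting cells of a mucosal surface, lay in the direction of Krt76. Of 6 markers, 5 were higher in DBA/2J by fitted value, 0 were called (background 0.796%) and 3 did not overlap. Those 3 were higher in DBA/2J, as 17.3% of all genes were without overlap. Foxa3 and Gcnt3 among them had few counts, 3 to 18 and 2 to 29 per pool. The secreted mucin Muc5ac had 184, 20.8 and 19.3 CPM in DBA/2J and 2.90 and 7.75 in Gpnmb+ (log2 fold change 3.81 ± 1.27 SE, adjusted p = 0.238 in edgeR). Agr2, which helps fold mucins, went the other way with a log2 fold change of -0.12. It had 900 to 1246 counts, ran from 20.2 to 26.6 CPM over the 5 pools and overlapped. The summed CPM of the list was 41.2 to 218 in DBA/2J and 27.5 to 34.4 in Gpnmb+, and the lowest count of any marker was 2, for Gcnt3. The part of these cells in the level of Krt76 was not tested.

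The wound-associated keratins differed between pools more than between genotypes, and Krt16 did so most. Krt16, a type I keratin that rises in wounded skin, had 226, 12.8 and 11.1 CPM in DBA/2J and 49.0 and 3.33 in Gpnmb+. DBA/2J pool 1 and Gpnmb+ pool 1 were the highest of their genotypes, by 20.5-fold over the lowest DBA/2J pool and by 14.7-fold over Gpnmb+ pool 2. The log2 fold change of 1.67 ± 1.65 SE (adjusted p = 0.677 in edgeR) became -1.14 without DBA/2J pool 1 and 4.65 without Gpnmb+ pool 1. Krt17, its frequent companion, had 356, 120 and 88.3 CPM in DBA/2J and 141 and 149 in Gpnmb+. DBA/2J pool 1 was thus the only pool that stood out for Krt17, and the log2 fold change of 0.37 was -0.48 without it. The type II partners were steadier. Krt6a had 1066, 682 and 521.7 CPM in DBA/2J and 865 and 716 in Gpnmb+, while Krt6b had 926, 862 and 543 in DBA/2J and 1085 and 766 in Gpnmb+, with log2 fold changes of -0.06 and -0.25. The level of Krt16 was 0.162, 0.0117 and 0.0148 of the sum of Krt6a and Krt6b in DBA/2J and 0.0356 and 0.00320 in Gpnmb+.

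Several of these genes share sequence, which bears on how reads could be assigned to them. For each canonical transcript the stretches of 100 bases, the read length, were looked up in all other transcripts. The share found letter for letter elsewhere was 34.0% for Krt6a and 30.6% for Krt6b, 23.2% for Krt16 and 2.7% for Krt14. The stretches of Krt16 were found in Krt14 and in the pseudogene Gm11597. Krt16 had 356 such stretches, while Krt14, which shared only with Krt16, had 46. Krt6a and Krt6b shared with each other and with Gm5414 and Gm5478, and Krt6a also with Krt5. Since the authors counted only reads that aligned to 1 place, the levels of Krt6a, Krt6b and Krt16 may be too low. Krt14 and Krt16 share their longest run, of 134 bases, in the coding part of exon 1, at chr11:100097843-100097976 and chr11:100139302-100139435 of GRCm39 on the minus strand. It includes the start of the rod domain and is shown, without capitals since all of it matches, as the stretch from which a read cannot be placed by its letters alone.
Krt14 and Krt16: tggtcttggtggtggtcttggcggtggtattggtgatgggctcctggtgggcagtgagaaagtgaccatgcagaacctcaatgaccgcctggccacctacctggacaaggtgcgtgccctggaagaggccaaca
The longest run of Krt6a and Krt6b was 280 bases. Read pairs that lie wholly inside such a run could not be placed in any pool, and a comparison of pools rests on the other parts of each transcript.

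Of the 5 simple epithelial keratins 4 had lower fitted values in DBA/2J, 1 of them (Krt18) by only -0.03, and none was called (background 0.796%). Krt19, which is made in many epithelia including the conjunctiva and the limbus, had 356, 368 and 287 CPM in DBA/2J and 544 and 491 in Gpnmb+. The genotypes did not overlap, and the log2 fold change was -0.62 ± 0.13 SE (adjusted p = 0.109 in edgeR, adjusted p = 0.00180 in DESeq2). Krt8 had 139, 171 and 136 CPM in DBA/2J and 194 and 222 in Gpnmb+ (-0.49 ± 0.13 SE, adjusted p = 0.161 in edgeR). Krt7, a type II keratin of ducts and glands, had 187, 228 and 181 CPM in DBA/2J and 244 and 316 in Gpnmb+ (-0.50 ± 0.15 SE, adjusted p = 0.212 in edgeR). For all 3 genes every DBA/2J pool was below both Gpnmb+ pools, as was the case for 17.2% of all genes.

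Krt18, the partner of Krt8, did not follow it. Its CPM was 134, 117 and 123 in DBA/2J and 129 and 125 in Gpnmb+, and the log2 fold change of -0.03 had a 95% interval of -0.25 to 0.19. The level of Krt18 over that of Krt8 was 1.32, 0.929 and 1.23 in DBA/2J and 0.907 and 0.764 in Gpnmb+, without overlap (exact permutation p of 0.2, adjusted p of 0.52 over 13 ratios). For Krt8, 16.9% of the 100-base stretches also occur in the processed pseudogene Krt8-ps, which was counted 6, 7 and 11 times in the DBA/2J pools, and 25 and 19 times in the Gpnmb+ pools. Krt20, a keratin of intestine and bladder, had 25 to 41 counts per pool.

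Among the keratins of other settings, Krt78 and Krt23 were lower in DBA/2J in every pool. The type II gene Krt78 had 32.0, 48.6 and 35.3 CPM in DBA/2J and 70.7 and 71.2 in Gpnmb+. It was 1.84-fold higher in Gpnmb+ (log2 fold change -0.88 ± 0.18 SE, adjusted p = 0.0984 in edgeR, adjusted p = 0.000955 in DESeq2). The type I gene Krt23 had 15.5, 20.3 and 24.9 CPM in DBA/2J and 28.9 and 38.6 in Gpnmb+ (-0.74 ± 0.22 SE, adjusted p = 0.200 in edgeR, adjusted p = 0.0476 in DESeq2). Krt80, whose filaments lie near desmosomes, had 147, 228 and 174 CPM in DBA/2J and 214 and 305 in Gpnmb+, so its pools overlapped. Krt75, of the companion layer of the hair follicle, had 30.8, 37.5 and 33.3 CPM in DBA/2J and 34.9 and 59.3 in Gpnmb+. It overlapped as well, and the value of Gpnmb+ pool 2 stood above the rest. Krt90, Krt222 and Krt24 had 84 to 203, 117 to 196 and 36 to 52 counts, with fitted log2 fold changes of -0.24, -0.12 and 0.35. Only Krt24 among these 3 did not overlap between genotypes, and its 95% interval was -0.35 to 1.05. Krt79, of the hair canal, had 11 to 39 counts and a value of 0.02.

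Apart from Krt75 of the companion layer, with 1371 to 2902 counts per pool, keratins of cornifying epidermis and hair were rare. Krt1 and Krt10, the suprabasal pair of cornifying epidermis, had 118 to 192 and 200 to 401 counts, and the others of that group had at most 15. Of 16 hair shaft keratins 6 were tested, none with more than 23 counts in a pool, and 3 had no count. Krt34 and Krt84 had fitted log2 fold changes of -1.59 and -1.56 and Krt87 of 1.22, each from 10, 10 and 11 counts at most. Krt36, Krt25 and Krt77 had at most 23, 15 and 15 counts and fitted values of -0.75, -1.15 and -0.94, and their pools overlapped. For Krt34, Krt84 and Krt87 the adjusted p was 0.470, 0.486 and 0.378 in edgeR. Of 111 Krtap genes, which make up the matrix of hair, 107 had no count and the largest count was 8, and the hair regulator Hoxc13 had at most 1 count in a pool. Among 8 markers of skin and hair follicle, 5 were tested and 0 called (background 0.796%), and Flg2 and Lce1a1 had no count.

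Genes that anchor keratin filaments were mostly lower in DBA/2J by fitted value, without a call (background 0.796%). Of 29 desmosome, hemidesmosome and plakin genes 27 were tested, 20 were lower and 7 higher, with a median log2 fold change of -0.20. Pools did not overlap for 6 lower and 2 higher genes, against 17.2% and 17.3% of all genes. Dsp (desmoplakin), which ties keratin to desmosomes, had 897, 967 and 625 CPM in DBA/2J and 1110 and 1089 in Gpnmb+. Perp, another abundant desmosomal gene, overlapped with 863, 1096 and 668 CPM against 932 and 1057. Dst (dystonin), whose epithelial form links keratin to hemidesmosomes, had 374, 441 and 357 CPM in DBA/2J and 619 and 586 in Gpnmb+ (-0.63 ± 0.12 SE, adjusted p = 0.0858 in edgeR). Dst is also made in nerve and muscle.

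Transcription factors and splicing factors of epithelia had lower fitted values in DBA/2J in 18 of 19 tested genes, with a median log2 fold change of -0.38. Of these genes 0 were called (background 0.796%). Pools did not overlap for 13 of them, all lower in DBA/2J, against 17.2% of all genes. Klf4, a regulator of the differentiating corneal and conjunctival surface, had 150, 151 and 169 CPM in DBA/2J and 221 and 248 in Gpnmb+ (-0.58 ± 0.10 SE, adjusted p = 0.0689 in edgeR). Pax6, which is also made in ciliary body, iris and retina, was the 1 gene with a higher value, at 0.24 (adjusted p = 0.413 in edgeR).

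The cornified envelope genes encode proteins that are crosslinked beneath the surface of keratinocytes. Of 22 tested, 13 were higher and 9 lower in DBA/2J by fitted value, and 0 were called (background 0.796%). The summed CPM of the list was 1187, 1487 and 971 in DBA/2J and 1331 and 1795 in Gpnmb+, highest in pool 2 of each genotype. A pair of small proline-rich genes, chosen after their values were seen, had another order. Sprr1a had 57.0, 8.78 and 6.75 CPM in DBA/2J and 37.8 and 2.00 in Gpnmb+, and Sprr2f had 328, 9 and 6 counts against 91 and 1. Both were highest in pool 1 of each genotype, as Krt16 and Krt14 were. Calml3, the most abundant of the list, overlapped at 843 to 1358 CPM in DBA/2J and 1128 and 1664 in Gpnmb+, and it was highest in pool 2 of each genotype. The CPM of Lgals7 stayed within a 1.19-fold range over all pools.

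Among 18 other intermediate filament genes, 1 was called, against 0.796% of all genes. The neurofilament gene Nefm had 5.69, 13.1 and 7.67 CPM in DBA/2J and 46.4 and 74.1 in Gpnmb+ (log2 fold change -2.77 ± 0.37 SE, adjusted p = 0.0444 in edgeR). Nefl, another neurofilament gene, had a log2 fold change of -1.76, not called at an adjusted p of 0.104 in edgeR. Gfap, the filament of glial cells, had 14.6, 22.1 and 15.4 CPM in DBA/2J and 7.13 and 9.14 in Gpnmb+, without overlap and in the other direction (log2 fold change 1.09 ± 0.23 SE, adjusted p = 0.104 in edgeR, adjusted p = 0.000586 in DESeq2). Vim, the filament of mesenchymal cells, had 812 to 1449 CPM over the 5 pools and overlapped. Calls were also made among markers of further tissues near the angle, where 0.294% of all genes were called lower and 0.502% higher. Car6 and Bpifa2 of 5 tested lacrimal gland markers were called lower, Slc4a11 of 3 corneal endothelium markers and Edn3 of 4 trabecular meshwork markers were called lower, and Six6 of 6 ciliary and pigment epithelium markers was called higher. All 8 skeletal muscle markers had higher fitted values in DBA/2J with 0 called, and 0 of 5 meibomian and 0 of 4 tested lens markers were called. The summed CPM of the lacrimal list was 79.3 to 206 in DBA/2J and 194 to 341 in Gpnmb+, and that of the muscle list 201 to 467 and 124 to 192. The part of the tissue make-up of each dissection in the keratin values was not tested.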

How the data were processed

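RNA was measured in 5 pools of iridocorneal tissue, 3 DBA/2J and 2 Gpnmb+. The deposited values are raw counts, not normalized, of the reads that aligned to 1 place on each gene. To make them, the authors used fastp for trimming and STAR for alignment to GRCm39 (Ensembl 110). The submitters' notes also name DESeq2. The strand used in counting is not given in the sources used here. Pools were taken as replicates, and their totals are in the text.

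Names, types and exon lengths came from GENCODE mouse M39 (Ensembl 116), which held 56323 of the 56941 identifiers. TPM used merged exon length. Genes that reached 10 counts in 1 pool or more were tested in R 4.3.3 with edgeR 4.0.16 (TMM, quasi-likelihood test, no covariate). DESeq2 1.42.0 and limma 3.58.1 were alternatives. A gene was called at a 1.5-fold change and an adjusted p-value (Benjamini-Hochberg, over all genes) no higher than 0.05. Scripts were tested on simulated data. Single values were compared by exact permutation.

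The members, gene lists and roles were chosen with earlier results of these data known. Named keratins were the 20 of highest mean level, every called one, the 8 largest fold changes and the 6 of largest range within a genotype. Named list genes were called members, the 3 largest fold changes and the 2 most abundant, and others named were chosen after their values were seen. Counts cover the spread between pools, not between the mice inside one. Promoter windows were read from the GENCODE canonical start, and for Krt12, Krt76 and Krt78 the RefSeq entry held the same last bases. The alternatives tried were other scalings, filters and tests, no fold change minimum, unadjusted p-values, the pool number as a block, another exon length (chosen after seeing the data) and each pool left out in turn. Results for 1 gene are not reported here.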

Additional observations from a re-analysis of the deposited data

How the results depend on the processing

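Under most alternatives no keratin was called. DESeq2 called 1 keratin higher and 3 lower in DBA/2J and 1 linker gene (Dst), where it called 927 genes in all against 157 in edgeR. Unadjusted p-values gave 1 higher, 4 lower and 2 linker genes (Dst and Eppk1) of 1710 genes. With each pool left out in turn 0 keratins were called in either direction, and 0 to 1 linker genes (Eppk1, without Gpnmb+ pool 1). These fits called 6, 1 and 17 genes of all tested without DBA/2J pools 1 to 3, and 217 and 2 without Gpnmb+ pools 1 and 2, where the lone Gpnmb+ pool left was assumed to vary like the DBA/2J pools. No count minimum gave 360 genes. The median keratin log2 fold change ran from -0.38 to 0.036 and that of the summed keratin CPM from -0.35 to -0.02 with a pool left out. Of 330 alternative values for 28 named keratins, 298 kept direction and side of the threshold, 12 passed it and 20 changed sign. No keratin was called in the main fit, so none could lose a call. Sign changes with a pool left out were found for Krt5 (-0.29 to 0.086), Krt14 (-0.22 to 0.89), Krt6b (-0.48 to 0.023), Krt6a (-0.39 to 0.14), Krt17 (-0.48 to 0.71), Krt18 (-0.084 to 0.017), Krt16 (-1.14 to 4.65), Krt10 (-0.59 to 0.18), Krt90 (-0.64 to 0.14) and Krt79 (-0.67 to 0.33). Krt79 was also at -0.16 in limma-voom. The cause was not tested. Pool numbers are shared by 2 pairs only and do not show that the pools belong together. Deviations of same-numbered pools from their genotype means correlated at 0.28 and 0.25. With only 2 Gpnmb+ pools, their deviations mirror each other. The correlations of DBA/2J pools 1 and 2 with the other Gpnmb+ pool were thereby fixed at -0.28 and -0.25. The values are not separate observations and cannot decide whether the pools were paired. With the replicate block 1 keratin was called higher (Krt16, 2.09) and 2 lower (Krt12, -2.50, and Krt23, -0.91) of 220 genes, while Krt5 (0.095), Krt6a (0.11) and Krt79 (-0.67) changed sign. With another exon length Krt7 ranked 14 instead of 15. Genes under 10 counts could not be compared at this depth, and 5 pools limit every p-value.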
